A study of Mus musculus with 12 samples.

Results

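Of the 42404 genome positions read by the arrays, 39 were taken for 3 short raised stretches of chromosome 15 that lie apart from the well known Myc gain. They were chosen by position and name: 25 probes between 3 and 5 Mb (Ghr and Oxct1), 9 probes between 71 and 72.8 Mb (Trappc9), and the 3 probes named Sema5a and 2 probes named Sdc2. The 5 genes are among 19959 autosomal gene names on the array. The choice rested on values of these same arrays, namely on the high ratios of tumour A390 at Ghr, Oxct1 and Trappc9 and of tumour B76 at Sema5a and Sdc2. Those values are therefore given as a description, with no test.

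The arrays, a form of comparative genomic hybridisation, set the DNA of tumour cells against that of non-neoplastic Schwann cells, each in its own dye. The cells were cultured from malignant peripheral nerve sheath tumours (MPNST). Every tumour came from a P0-GGFβ3 transgenic mouse, in which the myelin protein zero promoter makes Schwann cells express GGFβ3, an isoform of neuregulin-1. Of 11 tumours, 7 had a mixed genetic background, C57BL/6J x SJL/J: A394, A390, A382, A292, A202, A18 and 231 Trig. The 4 others, B76, B86, B91 and B96, were C57BL/6J. A382 was hybridised at passages 8 and 9 and counts once, as the mean of its 2 arrays. The reference on every array was wild-type Schwann cell DNA of strain C57BL/6J. Tumour cultures were started in DMEM10 medium with forskolin and NRG1β and then kept in DMEM10 alone, whereas the Schwann cell cultures stayed on both additions. The titles give passages 5 to 13 (none for 231 Trig), although the growth notes set the limit at 5 to 8. Whether the tumours came from separate mice is not stated in the sources used here, so p-values measure only the spread between these cultures. These are DNA measurements: they show copy ratios, not transcription, and the labelled cell type cannot be checked against expressed markers.

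A copy gain that is short and high is called an amplicon, and one tumour can carry several of them on one chromosome. A gain covers every gene between its edges, so neighbours are carried along with any gene that matters to the cell. In nerve sheath tumours Schwann cell growth is driven by neuregulin and Ras signalling, and copy gains of growth genes are a recurrent feature of the malignant form.

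Values are log2 ratios of tumour over reference signal, centred on the autosomal median of each array, so that 0 is the typical autosomal level and 1 a doubling of signal. A gene's value is the mean of its probes. The comparison level for chromosome 15 is the median of 578 probes between the first and last stretch, leaving out 1 Mb around Sema5a to Sdc2 and the 60 to 66 Mb region of Myc. This background ranged over the tumours from -0.14 in A292 to 0.40 in 231 Trig. It stood at 0.21 in A390 and 0.26 in B76. Per array, neighbouring probes spread by an SD of 0.18 to 0.246, and 99.4% or more of the probes were well above background with none saturated. Slide 1 carried 4 arrays (A202, A18, B86 and 231 Trig), was scanned on a different instrument and had 0.723% to 1.99% of spots set to missing, against 0.0604% to 0.107% elsewhere.

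A raised run is a row of neighbouring probes at 1 or more. The probes on both sides of the measured edges are printed here because they fix where each run can begin and end. An exception is the far edge of the Sema5a-Sdc2 run, of which only the inside probe is printed, further on. All coordinates are of build mm9, as the scanner files give them, and the letters are those of the array design.
Inside the Ghr-Oxct1 run, last raised probe, chr15:4824297-4824354: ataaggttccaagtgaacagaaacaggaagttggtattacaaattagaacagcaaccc
Outside it, AK040806, chr15:4997935-4997994: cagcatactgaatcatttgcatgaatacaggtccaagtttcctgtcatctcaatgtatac
Before the Trappc9 run, intergenic, chr15:71173716-71173775: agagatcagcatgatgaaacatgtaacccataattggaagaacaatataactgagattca
Inside it, AK005816, chr15:71284306-71284365: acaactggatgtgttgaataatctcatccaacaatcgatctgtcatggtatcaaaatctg
Inside it, Trappc9, chr15:72565745-72565804: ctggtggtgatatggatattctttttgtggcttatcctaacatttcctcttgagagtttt
Outside it, Trappc9, chr15:72890557-72890616: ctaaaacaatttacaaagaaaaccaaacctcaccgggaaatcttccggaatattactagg
Before the Sema5a-Sdc2 run, AK007520, chr15:32170306-32170365: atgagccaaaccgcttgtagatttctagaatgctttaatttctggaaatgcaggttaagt
Inside it, Sema5a, chr15:32492258-32492308: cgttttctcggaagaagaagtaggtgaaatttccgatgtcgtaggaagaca

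In A390 the first stretch formed a raised run of 24 probes from chr15:3229082 to chr15:4824354, at least 1595 kb long. The run had a mean log2 ratio of 2.93 (SD over probes 0.35), a 7.61-fold ratio on the linear scale. In the order of the chromosome it carried Selenop (a selenium transport protein), Ghr (the growth hormone receptor), Fbxo4 (a substrate receptor of a ubiquitin ligase), AW549877, Oxct1, Plcxd3 and C6 (a complement component). It also carried probes named by the cDNA accessions AK038305, AK007090, AK041537 and AK136915. Ccdc152, which lies between Selenop and Ghr in RefSeq's gene order, had no probe. The first probe of the run was also the first of the array on chromosome 15, so no edge toward the centromere was measured.

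The far edge was sharp. The last raised probe read 2.71 in A390, and AK040806, 174 kb on and still inside the 5 Mb limit, read 0.18. BC038655, just past that limit, read 0.17, near the A390 background of 0.21. The probes within the run differed among themselves from 1.77 to 3.30, the latter at C6. The lowest reading came from an intergenic probe with 21.7% G and C, and it is shown with these letters in capitals.
Intergenic, chr15:3861934-3861993: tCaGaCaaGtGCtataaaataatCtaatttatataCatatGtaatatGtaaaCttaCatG
The next lowest, at chr15:4306085, read 2.23 and held 28.3% G and C. The part of base composition in these readings was not tested.

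Ghr, the receptor through which growth hormone activates JAK2 and STAT5, was read by 3 probes. In A390 they gave 2.90, 3.03 and 3.23, a gene value of 3.06. The other mixed-background tumours read -0.03 (A18), 0.27 (231 Trig), -0.12 (A202), -0.21 (A292), -0.05 (A382) and -0.19 (A394). The C57BL/6J tumours read -0.21 (B86), 0.30 (B91), 0.10 (B96) and 0.17 (B76). A390 stood far above every other tumour, the next being B91, and the remaining values of the mixed and C57BL/6J tumours overlapped.

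Oxct1 encodes the mitochondrial transferase that lets cells burn ketone bodies. Its 3 probes read 2.91, 2.91 and 2.99 in A390, a gene value of 2.94. The other mixed-background tumours lay at 0.10 (A18), 0.28 (231 Trig), -0.08 (A202), -0.22 (A292), -0.09 (A382) and -0.10 (A394). The C57BL/6J tumours lay at -0.10 (B86), 0.28 (B91), 0.08 (B96) and 0.13 (B76). Again A390 stood alone, and its 3 Oxct1 probes were closer together than its 3 Ghr probes.

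**Figure D1:**
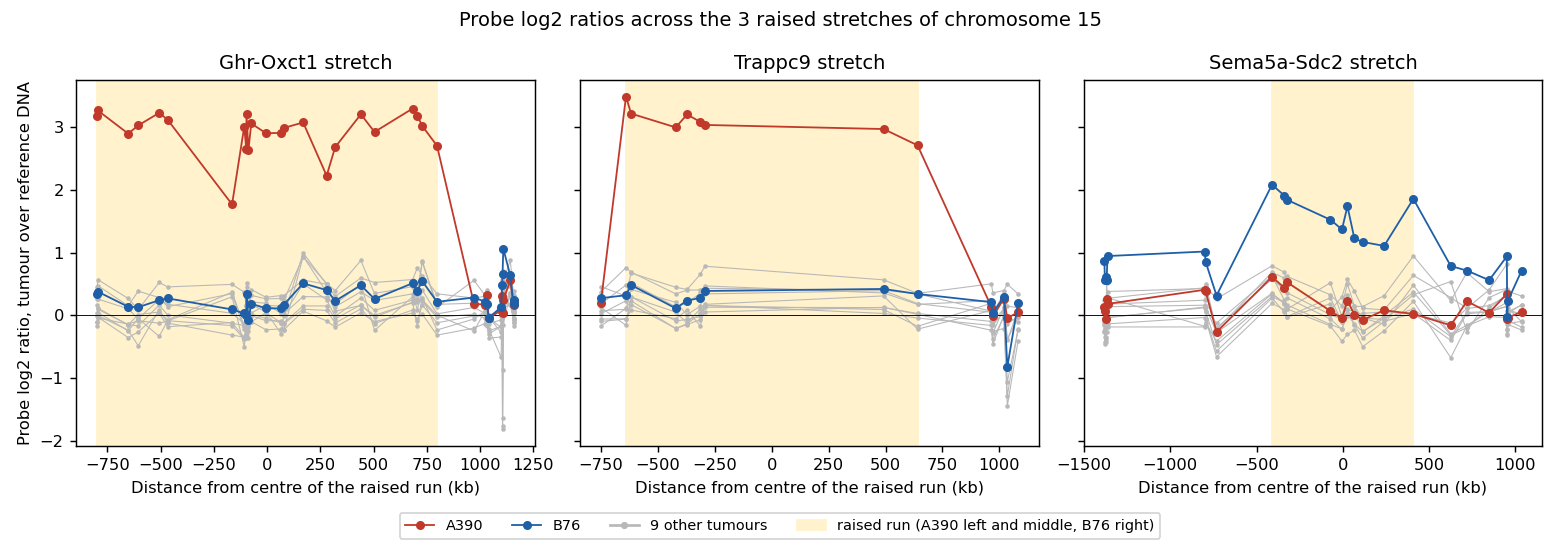
Log2 ratio of every probe (vertical axis) against its distance in kb from the centre of each raised run (horizontal axis) at the Ghr-Oxct1, Trappc9 and Sema5a-Sdc2 stretches. A390 is red, B76 is blue, the other 9 tumours are grey and the shaded span is the raised run. A390 stands near 3 across the first 2 shaded spans and B76 between 1.11 and 2.09 across the third, while within the spans the other tumours stay under 1.

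Trappc9 encodes a subunit of the TRAPPII vesicle-tethering complex that also binds kinases of the NF-κB pathway. In A390 the raised run here held 8 of the 9 probes of its window, from chr15:71284306 to chr15:72565804 (1281.5 kb). Its mean was 3.09 (SD over probes 0.23), an 8.53-fold linear ratio, and its probes ranged from 2.72 to 3.49. The intergenic probe 111 kb before the run read 0.20. Besides Trappc9 the run held probes named AK005816, AK043571 and AK010095. RefSeq's gene order places Fam135b, Col22a1 (a collagen chain) and Kcnk9 (a potassium channel) between Khdrbs3 and Trappc9, and none of these had a probe under its name.

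The end of the run fell within the Trappc9 gene name. It is carried by 2 probes (1810044A24Rik in the files), 325 kb apart. In A390 the first read 2.72 and the second 0.13. The first probe read 0.18 in A18, 0.35 in 231 Trig, -0.17 in A202, 0.02 in A292, 0.03 in A382 and -0.04 in A394, and -0.22, 0.34, 0.19 and 0.34 in B86, B91, B96 and B76. The second read 0.24, 0.50, 0.19, -0.24, -0.10 and -0.16 in the same 6 mixed-background tumours, and 0.08, 0.07, 0.05 and 0.21 in the C57BL/6J tumours.

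The difference of the first minus the second Trappc9 probe was 2.58 in A390 and between -0.37 and 0.28 in the other 10 tumours. A390 was thus high at one probe of the gene and within the range of the others at the next. The gene value of 1.42 in A390 is the mean of these unlike probes and describes neither. Beyond the edge, the nearest named gene was Ago2 (an Argonaute protein of RNA silencing), whose 3 probes read 0.27, -0.04 and 0.05 in A390. The middle Ago2 probe varied widely elsewhere, from -1.45 in A292 to 0.50 in 231 Trig.

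**Figure D2:**
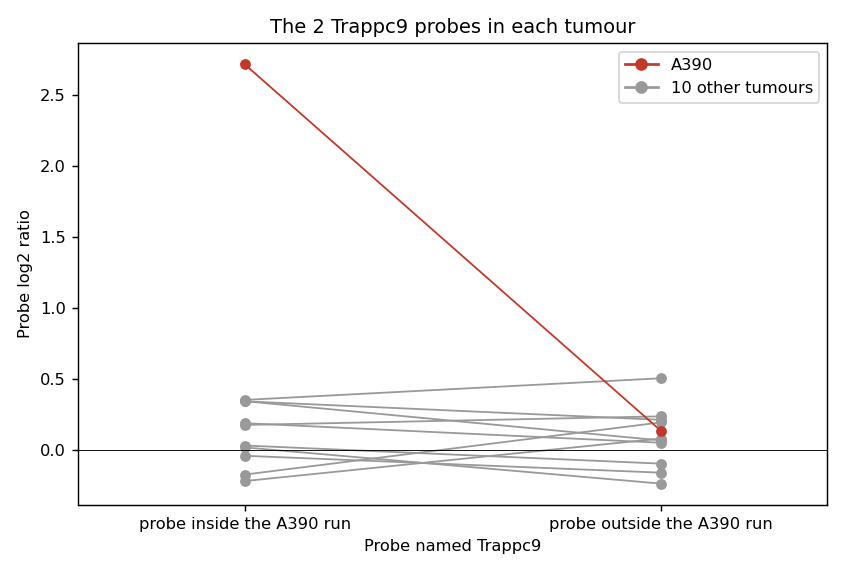
Log2 ratio (vertical axis) of the probe named Trappc9 inside the A390 run and of the one beyond its edge (horizontal axis), joined by a line per tumour. A390 (red) drops from 2.72 to 0.13, and the 10 other tumours (grey) stay between -0.24 and 0.50.

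The Sema5a-Sdc2 stretch was raised in B76, to a lower level and with graded flanks. The run of 10 probes from chr15:32492258 to chr15:33312360 (820 kb) had a mean of 1.59 (SD over probes 0.35), a 3.00-fold linear ratio. It held Sema5a, Sdc2, Cpq (a peptidase, Pgcp in the files) and 2 intergenic probes, and its probes ranged from 1.11 to 2.09. Along the chromosome the readings were 2.09, 1.91 and 1.85 at Sema5a, 1.53 at an intergenic probe, 1.37 and 1.74 at Sdc2, 1.23 at a second intergenic probe, and 1.17 and 1.11 at the first Cpq probes.

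The last Cpq probe turned up again to 1.86. It is nearly free of G and C (6.67%), was well above background on only 4 of 12 arrays, and is shown with its G and C in capitals.
Cpq, chr15:33312301-33312360: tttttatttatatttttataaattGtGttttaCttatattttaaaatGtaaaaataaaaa
Without it the run ended at chr15:33142709, spanned 650 kb with 9 probes and had a mean of 1.56 (SD 0.36).

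On both sides B76 held a shoulder between the run and the chromosome background. Toward the centromere, 11 probes from chr15:31448434 to chr15:32170365 had a mean of 0.69 (1.61-fold) and covered Marchf6 (a ubiquitin ligase of the endoplasmic reticulum), Cmbl, Cct5 (a chaperonin subunit), Atpsckmt, Tas2r119 and AK007520. Within this shoulder the probe next to the run, AK007520, read 0.32, below the probes on both sides of it, Tas2r119 and the first of Sema5a, as it was in the other 10 tumours (-0.66 to 0.26). On the far side, 28 probes from chr15:33529250 to chr15:34580177 had a mean of 0.77 (1.70-fold) and covered AK016384, Mtdh, Laptm4b, Matn2, Rpl30, Erich5, Rida, Pop1 and Nipal2. The B76 level outside these pieces was 0.23 before and 0.21 after them.

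Sema5a encodes a transmembrane semaphorin of axon guidance that binds plexins. Its 3 probes gave a value of 1.95 in B76. The other C57BL/6J tumours read 0.17 (B86), 0.64 (B91) and 0.45 (B96). The mixed-background tumours read 0.67 (231 Trig), 0.53 (A390), 0.33 (A18), 0.26 (A382), 0.18 (A202), 0.17 (A394) and 0.13 (A292). B76 was far above the next, 231 Trig, and all 11 values were above 0.

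Sdc2 encodes syndecan-2, a cell-surface heparan sulphate proteoglycan. Its 2 probes gave 1.56 in B76. The other C57BL/6J tumours read -0.01 (B86), 0.33 (B91) and 0.10 (B96). The mixed-background tumours read 0.44 (231 Trig), 0.15 (A18), 0.09 (A390), -0.06 (A202), -0.06 (A382), -0.10 (A394) and -0.36 (A292). Only B76 was above 0.44, and values of the remaining tumours lay on both sides of 0.

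**Figure D3:**
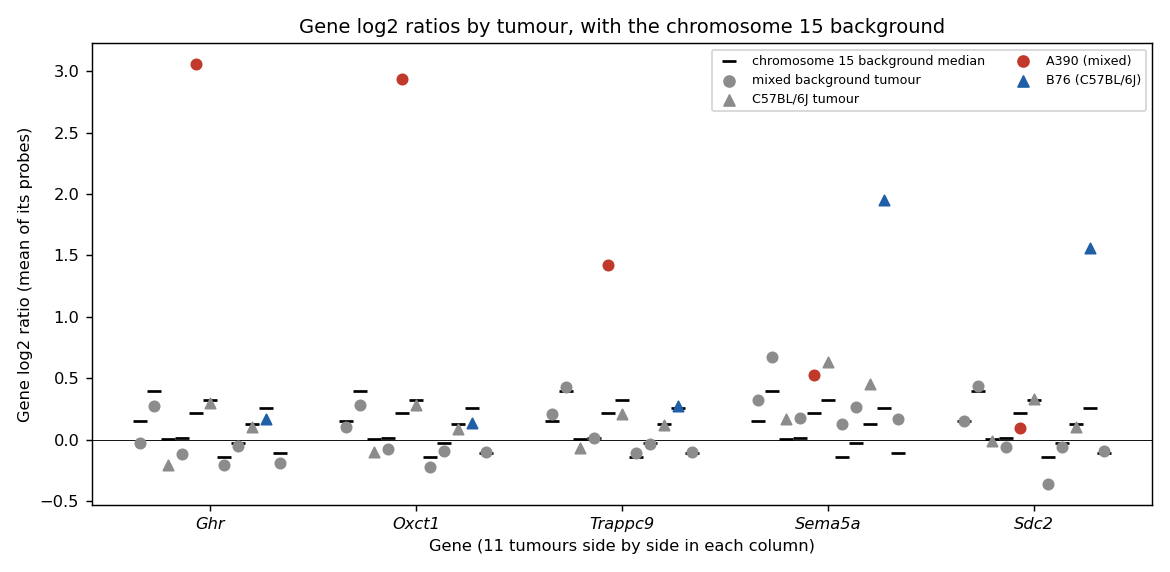
Log2 ratio of each gene (vertical axis) in the 11 tumours, side by side in the column of each gene (horizontal axis); circles are mixed-background and triangles C57BL/6J tumours, and black dashes give the chromosome 15 background median of the same tumour. A390 (red) reads 3.06 at Ghr, 2.94 at Oxct1 and 1.42 at Trappc9, B76 (blue) reads 1.95 at Sema5a and 1.56 at Sdc2, and the other points lie near their dashes, those of Sema5a above them.

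No other tumour had a raised run at these places. Over the probes of the Ghr-Oxct1 run, the means of the other 10 tumours ranged from -0.13 (A292) to 0.41 (B91), with a median of 0.10. Over the Trappc9 run they ranged from -0.0046 (A394) to 0.53 (231 Trig), with a median of 0.16. Over the Sema5a-Sdc2 run they ranged from -0.12 (A292) to 0.44 (B91), with a median of 0.14.

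The highest single probe of another tumour in any of the runs was the intergenic one at chr15:4195792, with 1.00 in A18, 0.94 in 231 Trig and 0.94 in B86. Those 3 arrays were on slide 1. A202, also on slide 1, read 0.50, and the 6 other tumours outside A390 read 0.07 to 0.57. The part of the scanner in this probe was not tested.

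The tumour signal alone carried the raised ratios. Over the Ghr-Oxct1 run the tumour channel of A390 was 2.85 above the median of the other tumours, and its reference channel differed from theirs by -0.06. Over the Trappc9 run these differences were 2.77 and -0.13. In B76, over the Sema5a-Sdc2 run, they were 1.38 and -0.06. The reference channels of all 11 tumours lay between -0.13 and 0.25 over the 3 runs. The highest of these, 0.25 in B86 and 0.20 in 231 Trig, came from slide 1.

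**Figure D4:**
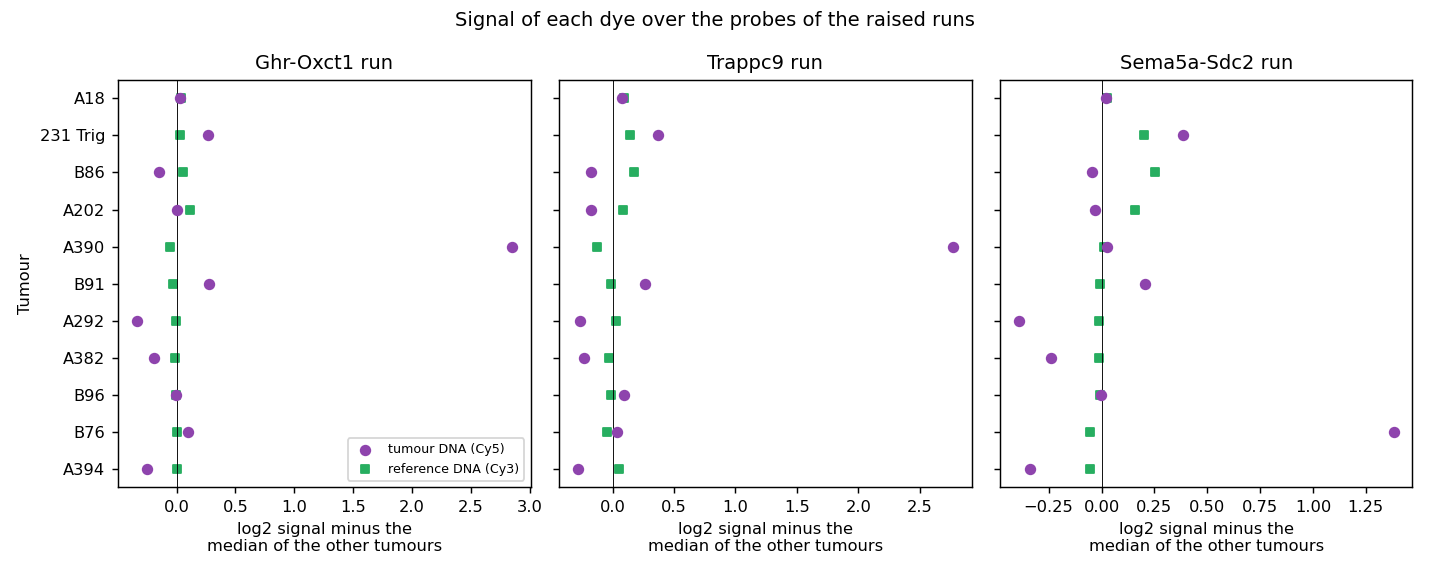
Log2 signal of each dye over the probes of each raised run, as the difference from the median of the other tumours (horizontal axis), by tumour (vertical axis); purple circles are tumour DNA and green squares reference DNA. The tumour channel is high in A390 at the first 2 runs (2.85 and 2.77) and in B76 at the third (1.38), and no reference channel exceeds 0.25.

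A390 and B76 both carried a further run at Myc, the proto-oncogene that lies between Sema5a and Trappc9 on the chromosome. In A390 the Myc run of 15 probes from chr15:60562387 to chr15:63648246 had a mean of 3.00 (SD over probes 0.33). The Ghr-Oxct1 run at 2.93 and the Trappc9 run at 3.09 differed from it by less than the spread of probes within any of the 3. A further 6 probes after the Myc run, to chr15:64098743, had a mean of 2.39. The last 5 of them, from chr15:63781611, formed a separate raised run with a mean of 2.71. Otherwise A390 read 0.21 over 572 probes, from AK040806 to just before the Myc run, and 0.31 over 49 probes before the Trappc9 run. The Ghr-Oxct1, Myc and Trappc9 runs of A390 were thus of similar height. Apart from the 6 probes after Myc, the chromosome between them lay near its background level.

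In B76 the Myc run of 9 probes reached 4.31 (SD over probes 0.39), a 19.9-fold linear ratio, and the Sema5a-Sdc2 run at 1.59 stood far below it. B76 also had 2 lesser raised segments, of mean 0.82 over 28 probes with Zfr, Golph3 (a Golgi membrane protein), Drosha and others, and of mean 0.85 over 14 probes with Rims2, Dcstamp, Dpys and Lrp12. Its levels between these segments were 0.21 to 0.24. In A202, the third tumour with a Myc run (2.42 over 12 probes), the run means at the other stretches were 0.03 for Ghr-Oxct1, -0.0042 for Trappc9 and 0.10 for Sema5a-Sdc2. In B76, Golph3 lay in a short row of 3 probes with a mean of 1.08. Rows of at least 3 probes at 1 or more on chromosome 15 were found in A202, A390 and B76 and in none of the other 8 tumours.

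**Figure D5:**
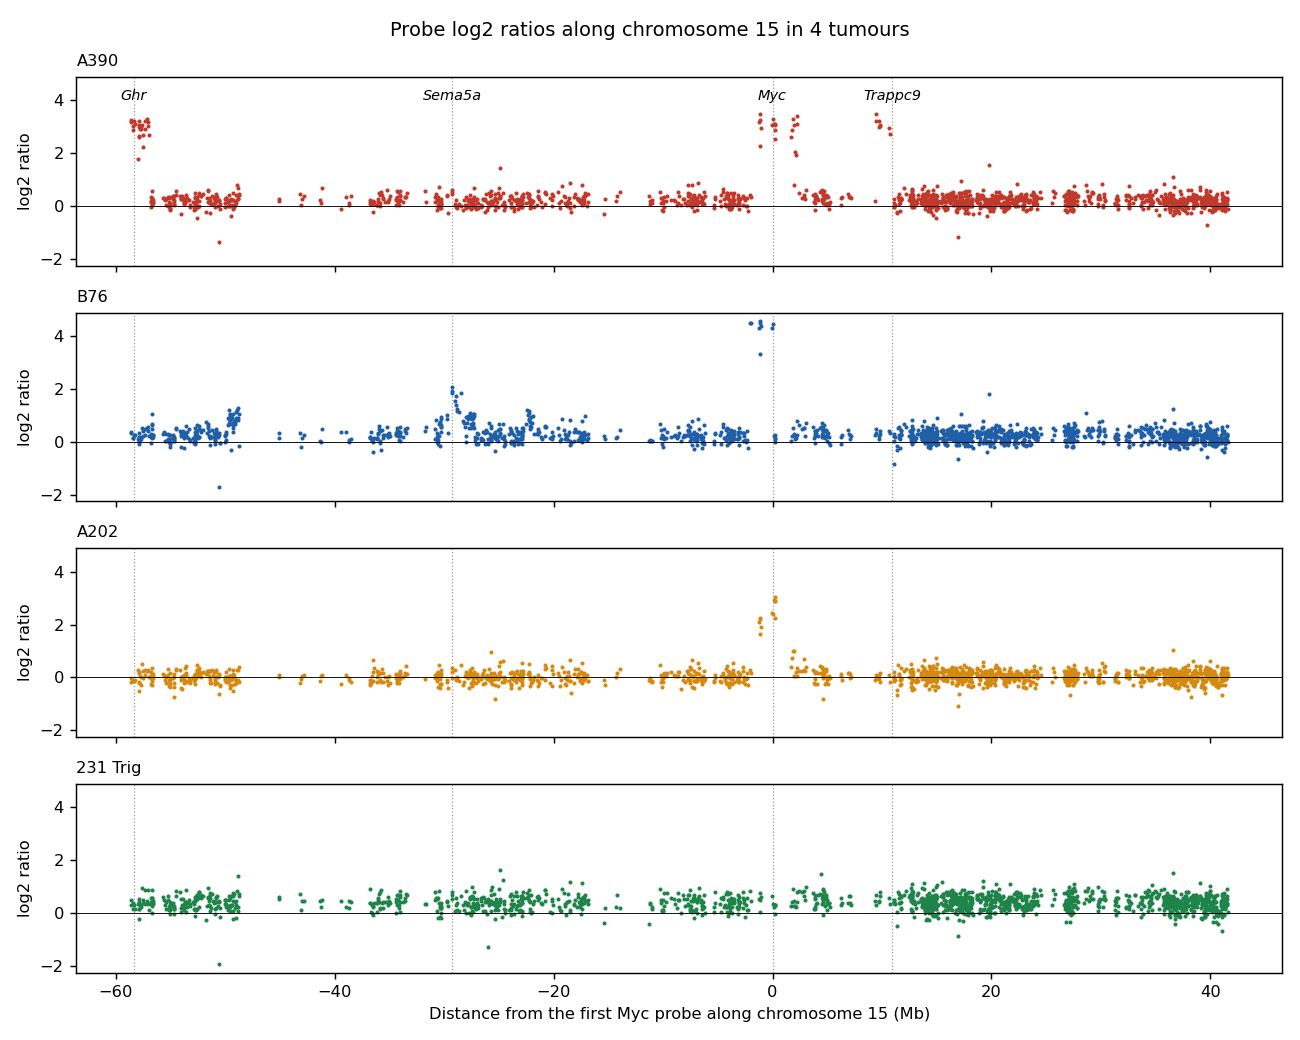
Log2 ratio of every chromosome 15 probe (vertical axis) against distance in Mb from the first Myc probe (horizontal axis) in A390, B76, A202 and 231 Trig; dotted lines mark Ghr, Sema5a, Myc and Trappc9. A390 shows separate raised groups near 3 at Ghr, Myc and Trappc9, B76 shows 4.31 at Myc and 1.59 at Sema5a, A202 shows 2.42 at Myc alone, and 231 Trig is shifted as a whole to a background of 0.40.

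The tumours that did not choose a stretch allow a test of whether its genes differed from the reference elsewhere. Ghr, Oxct1 and Trappc9 were tested without A390 (10 tumours), with limma fitted on all 19959 genes. The mean of Ghr was 0.0038 (SE 0.06, 95% interval -0.12 to 0.13, adjusted p = 0.962). The mean of Oxct1 was 0.03 (SE 0.05, interval -0.09 to 0.14, adjusted p = 0.678). The mean of Trappc9 was 0.09 (SE 0.06, interval -0.03 to 0.21, adjusted p = 0.176), and 0.056 without 231 Trig. Here and in the comparisons below, the Trappc9 value joins the probe inside the A390 run with the one outside it. Over the 8 probes of that run the mean of these 10 tumours was 0.20, which was not tested. To pass, a gene needed an adjusted p (Benjamini-Hochberg) below 0.05 together with a mean of 0.2 or more in size. None of the 3 genes passed, and their unadjusted p-values were 0.949, 0.601 and 0.115, while 33.4% of all genes passed in that fit.

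Sema5a and Sdc2 were tested likewise without B76. Sema5a was above the reference in 10 of 10 tumours, with a mean of 0.35 (SE 0.06, interval 0.22 to 0.48, limma adjusted p = 0.000191), and it passed. Passing was common in this fit, at 33.9% of all genes, and 18% passed on the higher side. Sdc2 had a mean of 0.05 (SE 0.06, interval -0.08 to 0.19, adjusted p = 0.505) and did not pass, although it neighbours Sema5a.

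Set against the chromosome 15 background of the same tumour, the other 10 tumours gave -0.10 ± 0.07 for Ghr, -0.07 ± 0.04 for Oxct1, -0.0075 ± 0.05 for Trappc9 and -0.04 ± 0.08 for Sdc2 (mean ± SD, n = 10). Over all probes of the raised runs these tumours gave 0.02 ± 0.03 at Ghr-Oxct1, 0.10 ± 0.06 at Trappc9 and 0.05 ± 0.04 at Sema5a-Sdc2. The values of Ghr, Oxct1 and Trappc9 thus hold for their own probes and not for the whole runs. Sema5a stood 0.26 ± 0.06 above that background, from 0.16 in A202 to 0.32 in B96. This comparison was chosen after seeing the data. In a limma fit with the members set against it, Sema5a still passed (adjusted p = 3.59e-05), and Ghr had an adjusted p of 0.0334 but missed the size of 0.2. Only the members were set against the background in that fit, and all other genes were left as they were. Its adjusted p-values are therefore not comparable with those of the main fit. Of 432 chromosome 15 genes with at least 2 probes, 17 (3.94%) had a mean offset at least as high as Sema5a, itself included, and 70 (16.2%) were above the background in all 10 tumours.

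The Sema5a offset was seen at each of its probes to a different degree. The first, at chr15:32492258, ranged from 0.19 (A292) to 0.79 (231 Trig) in these 10 tumours. The second ranged from 0.05 (A394) to 0.69 (231 Trig), and the third from -0.03 (B86) to 0.62 (B91). The lowest values of the third probe were those of B86, A202 and A18, all on slide 1, and A18, B86 and A202 also had the smallest Sema5a offsets (0.16 to 0.17). The other tumour on slide 1, 231 Trig, went the other way. It read 0.54 at the third probe and had an offset of 0.27. The part of the scanner in the offset was not tested.

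The strain backgrounds were compared without the tumour that chose the stretch. Mixed minus C57BL/6J was -0.14 (SE 0.12) for Ghr, -0.12 (SE 0.11) for Oxct1 and -0.07 (SE 0.12) for Trappc9, with 6 tumours against 4 and limma adjusted p-values of 0.629, 0.666 and 0.825. It was -0.10 (SE 0.13) for Sema5a and -0.12 (SE 0.14) for Sdc2, with 7 against 3 and adjusted p-values of 0.771 and 0.715. None of the 5 genes passed, where 0.0501% of all genes passed without A390 (0.0401% higher and 0.01% lower in the mixed tumours) and 0.02% without B76, and none of the 5 unadjusted p-values, 0.238 to 0.576, was under 0.05.

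The intervals were wide: for Ghr the difference could lie between -0.39 and 0.11. Within slide 1 the mixed tumours were the higher in all 5 genes, by 0.19 to 0.28. Within slides 2 and 3 the differences ran from -0.45 to -0.16. The chromosome 15 background turned in the same way, at 0.19 within slide 1, -0.30 within slide 2 and -0.26 within slide 3. Slide 1 held 1 C57BL/6J tumour, B86. With slide as a block the differences were -0.15 for Ghr, -0.14 for Oxct1, -0.08 for Trappc9, -0.11 for Sema5a and -0.14 for Sdc2. Without slide 1 they were larger, at -0.34, -0.31, -0.28, -0.27 and -0.32 in the same order, and none passed (limma adjusted p 0.212 to 0.613).

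The 2 passages of A382 gave a measure of repeatability on separate slides. Over the 3 stretches, passage 9 minus passage 8 was 0.04, -0.06 and 0.05. By gene the differences were between -0.11 and 0.10.

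Genes that act with the members were described over all 11 tumours, from 5 lists. Of 18 measured genes of the growth hormone axis, 9 rose, 1 fell and 8 did not pass, where 33.5% of all genes passed, 18% having risen and 15.5% fallen. Their median was 0.17, against -0.01 for all genes. Of the 9, 5 lay on chromosome 11, which was higher as a whole: of 3599 genes that rose, 2108 lay outside it. The chromosome 11 genes were Igfbp3 (1.00), Gh, the hormone gene itself (0.95), Stat5a (0.66), Stat5b (0.51) and Socs3. Igfbp3, Gh and Socs3 were read by 1 probe each. Elsewhere Prlr, the prolactin receptor and a relative of Ghr on chromosome 15, rose by 0.33 and was above 0 in 11 of 11 tumours. These Prlr values were not set against the chromosome 15 background, which itself ran from -0.14 in A292 to 0.40 in 231 Trig. Socs1 on chromosome 16, an inhibitor of the pathway read by 1 probe, fell by 0.40.

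None of 8 measured genes of ketone body metabolism passed in limma, where 33.5% of all genes passed. Of the 8, 2 had an unadjusted p under 0.05, and the means of the 8 lay between -0.11 and 0.18. Of 13 genes of the TRAPP complex and its partners, 1 rose and 3 fell, where 18% of all genes rose and 15.5% fell. Map3k14, the NF-κB-inducing kinase on chromosome 11, rose by 0.54. The subunits Trappc13 (-0.38, chromosome 13), Trappc4 (-0.33, chromosome 9, 1 probe) and Trappc8 (-0.32, chromosome 18) fell. The part of whole chromosomes in these falls was not tested.

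Of 26 semaphorin, plexin and neuropilin genes, 3 rose and 5 fell, where 18% of all genes rose and 15.5% fell. The largest means were those of Sema7a (-0.30, chromosome 9), Sema5b (-0.29, chromosome 16), the closest relative of Sema5a, Sema6b (-0.24, chromosome 17, 1 probe) and the plexin Plxnd1 (0.23, chromosome 6). Against the same shares, none of 18 syndecan and heparan sulphate synthesis genes rose, 4 fell and 14 did not pass. The 4 were Sdcbp, which binds syndecan tails (-0.33, chromosome 4), Sdc4 (-0.33, chromosome 2), and the synthesis enzymes Extl3 (-0.33, chromosome 14) and Ndst1 (-0.27, chromosome 18, 1 probe). The part of whole chromosomes in the changes of both lists was not tested.

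Values of 1 or more were rare over all 19959 genes, at 122 genes in A390 and 495 in B76. With so few, the counts in the lists say nothing particular about the partner genes. No gene of the 5 lists reached 1 in A390, where the highest was 0.88, that of Igfbp3. In B76 Gh and Igfbp3 reached 1.15 each, and both were also high in the other tumours (lowest values 0.59 and 0.69).

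Genes on other chromosomes whose values followed the members over the 11 tumours were sought among 10479 with at least 2 probes. For Ghr they were Eif4a2 (Pearson r = 0.94), Crispld2 (0.83) and Acss1 (0.81), for Oxct1 the same genes (0.94, 0.82 and 0.80), and for Trappc9 Eif4a2 (0.96), Crispld2 (0.83) and Dnajc5 (0.79). For Sema5a they were Ubxn8 (0.94), BC058249 (0.94) and Ctcf (0.94), and for Sdc2 BC058249 (0.94), Ubxn8 (0.91) and Leprotl1 (0.90). These r values have 11 points that share the reference DNA, and 1 tumour decides many of them. Without A390, Ghr gave 0.84 with Eif4a2, 0.32 with Crispld2 and -0.12 with Acss1. Without B76, Sema5a gave 0.61 with Ubxn8, 0.59 with BC058249 and 0.76 with Ctcf. Sdc2 then gave 0.62 with BC058249, 0.44 with Ubxn8 and 0.43 with Leprotl1. Every gene named for Sema5a and Sdc2 lay on chromosome 8, so they are not independent of each other. Each read higher in B76 than the median of the other tumours, for example Ubxn8 at 0.80 against -0.06.

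Eif4a2, a translation initiation factor gene on chromosome 16, followed A390 through 1 of its 4 probes. The probe at chr16:23111937-23111996 read 1.72 in A390 and -0.35 to -0.0036 in the other tumours. The other 3 read -0.07, -0.42 and -0.66 in A390. A390 stood apart from the other tumours at that probe, was within their range at the first 2 of the others and below it at the last.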

How the data were processed

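Tumour and reference DNA were read on 12 Agilent two-colour arrays, tumour in Cy5 and reference in Cy3. Dyes were not swapped: effects of dye and tumour cannot be told apart. The authors deposited scanner files with a log10 ratio of red over green per spot, and the red and green intensity before and after the scanner software's background subtraction and dye normalisation, per the file headers. Build mm9 and Agilent Feature Extraction 9.5 are named by the submitters' processing notes. The deposited series table held the same log10 values.

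Here ratios were turned to log2, flagged spots set to missing, spots of a probe averaged, and each array centred on its autosomal median. Names were updated through RefSeq accessions of GRCm38.p6 (28951 of 29337 probes with one matched), and no mm9 annotation was used, so exons and introns are not given. No probe near the stretches lay in a RefSeq promoter window. The gene tests used R 4.3.3 and limma 3.58.1, with Benjamini-Hochberg adjustment over all autosomal genes, and the code was tested on simulated data. The reference has no spread of its own in these tests. Segments came from penalised least squares (penalty of 40 noise variances, at least 5 probes). The rest used matplotlib 3.10.9, pandas 2.3.3 and numpy 2.4.6 under Python 3.11.15.

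The genes named are the 5 members, every gene with a probe in the stretches and the nearest on each side, up to 3 most correlated genes per member, up to 4 passing genes of each related list by size, and Myc. Prlr, Socs3, Socs1, the genes of the flanking and other segments of B76, and genes without a probe were named after their values or positions were seen. The members and lists were chosen with earlier results of these data known. Alternatives are other centrings, spot filters, background corrections, smoothing, slides, passages, thresholds and left-out tumours.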

Additional observations from a re-analysis of the deposited data

How the results depend on the processing

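Of 268 recomputed values, 242 were labelled the same, 13 changed sign and 13 moved in size. For gene tests, the same meant an unchanged direction and call. Levels, extents and counts have no call. For them it meant a shift under the SD of the other tumours, an equal length, or a count within a set factor. The levels and extents are those of A390 and B76, which chose the stretches. The call of Sema5a in the tumours other than B76 held in all 21 alternatives (0.26 to 0.39, limma adjusted p 3.59e-05 to 0.00328). The lowest p-value among these 21 came from the fit in which only the members were set against the chromosome 15 background. Some of the 268 values, and of these 21, could not have overturned a call. The deposited series table repeats the same ratios, and dropping the size minimum can only loosen a call. The mean of Ghr without A390 lay so near 0 that it changed sign with normexp background (-0.028), with A382 passage 8 only (-0.0013) and relative to the chromosome 15 background (-0.097), and its values with 1 tumour left out ran from -0.0287 to 0.0276, below 0 without 231 Trig (-0.0263), B91, B96 (-0.00705) or B76 (-0.0147). Relative to that background, added after seeing the data, the means of Oxct1 (-0.0721), Trappc9 (-0.0075) and Sdc2 (-0.0435) changed sign too, as did the strain differences of Oxct1 (0.0098) and Trappc9 (0.0618). With 1 tumour left out, the mean of Oxct1 ran from 0.00046 (without B91) to 0.057 (without A292), that of Trappc9 from 0.0562 (without 231 Trig) to 0.116 (without A292) and that of Sdc2 from 0.0105 (without 231 Trig) to 0.0989 (without A292). The strain differences ran from -0.243 to -0.0743 for Ghr, -0.185 to -0.0566 for Oxct1, -0.2 to -0.0311 for Sdc2 and -0.22 to 0.0115 for Sema5a, each lowest without B86 and highest without B91. That of Trappc9 ran from -0.138 (without 231 Trig) to -0.0181 (without B76). The cause of these changes was not tested; none of the values passed.

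The A390 level of the whole Ghr-Oxct1 window, 2.82, became 3.18 with normexp, 2.60 relative to the background and 3.01 as a median. The Trappc9 window, 2.77, became 3.14, 2.56 and 3.04, and 3.09 over the raised run alone (added after seeing the data). The Sema5a-Sdc2 span in B76, 1.75, became 1.97 with normexp and 1.49 relative to the background. The B76 run of 820 kb became 1362 kb at a threshold of 0.5, 338 kb at 1.5 and 650 kb without the dim probe (added after seeing the data), while both A390 runs kept their extent in all 4 alternatives. The 26 related genes that passed became 40 with no size minimum.

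No paired analysis was possible because the replicate numbers were given in accession order and pair no tumours. The ratios carry no ploidy, so they are not copy numbers, and an edge is known only to the gap between probes.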

Other observations

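Single probes outside chromosome 15 that were raised in A390 without their neighbours were counted after the Eif4a2 reading had been seen. Of 39094 autosomal probes, 13 read at least 1 above the median of the other tumours with both neighbours less than 0.5 above theirs. In B76 there were 17 of 39095. By excess over the median of the other tumours, the first in A390 was a probe of Tspan18 on chromosome 2 (2.05, where the others ranged from -0.37 to 1.84), so another tumour came close to it. The next was the Eif4a2 probe (1.72, others at most -0.0036), which no other tumour approached. The third was a probe of Cope on chromosome 8 (1.52, others -0.36 to 1.55).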
